A study of Homo sapiens with 31 samples.

Results

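A set of 7 keratin genes, listed under the working name of keratins of ductal epithelium, was followed through the RNA-seq tables of a study of PANC-1, an established human pancreatic ductal cancer cell line. The members, KRT7, KRT8, KRT17, KRT18, KRT19, KRT80 and KRT81, were chosen by gene symbol with earlier results of these data in view, and the list has no threshold. All 7 were found, among 57992 genes of the steady-state tables and 43682 genes of the actinomycin D tables. The steady-state set held 3 libraries of KHSRP knockout cells (KO) and 3 of wild-type cells titled NC. The actinomycin D set held, for each of the same genotype labels, 2 libraries at each of 0, 2, 4, 6 and 8 h of treatment with actinomycin D, which blocks transcription. The labels name no clone, no knockout method and no source of the replicates, so a p-value here speaks of the spread among libraries, and that spread may be technical. Of 31 samples in the series, 26 were used, and the other 5 (3 miCLIP and 2 PAR-CLIP samples of wild-type cells) were not analysed here.

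Keratins are the intermediate filament proteins of epithelial cells. Each filament is built from heterodimers of a type I (acidic) and a type II (basic) chain, so neither type forms a filament alone. KRT8 (type II) and KRT18 (type I) are the pair of simple epithelia in general. KRT7 (type II) and KRT19 (type I) are added in ducts, including those of the pancreas, and are used to mark ductal epithelium and ductal tumours. KRT17 (type I) belongs to basal and stressed epithelium, KRT81 (type II) to hair, and KRT80 (type II) is an epithelial keratin described in differentiating cells.

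The steady-state libraries held 33706181 to 43278138 counts and the actinomycin D libraries 19177934 to 25768060. KHSRP, the targeted gene, was at 9.49 to 10.6 CPM (CPM is the count scaled to the library total after TMM scaling, the level scale used below unless another is named) in the steady-state KO libraries and at 64.4 to 65.7 CPM in NC. In the actinomycin D set it was at 134 to 156 CPM under the label KO (10 libraries) and at 375 to 460 CPM under the label NC (10 libraries). CDKN2A, a tumour suppressor gene deleted in the PANC-1 line, had 0 counts in every actinomycin D library labelled KO and 2728 to 5476 counts in every one labelled NC, against at most 6 counts in a steady-state library. The label KO and the label NC of the actinomycin D set therefore differed in more than KHSRP, and what else differed between these cells was not tested. For this reason the actinomycin D libraries are named below by their labels only.

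The order of the 7 genes, compared per transcript length, was the same in 16 of the 26 libraries, namely all 6 steady-state libraries and all 10 actinomycin D libraries labelled KO. KRT8 came first, followed by KRT18, KRT19, KRT80, KRT7, KRT81 and KRT17. The 10 libraries labelled NC had another order, in which KRT7 and KRT17 followed directly after KRT8 and KRT18, and KRT19 stood last or last but one. The working name describes these libraries only in part, since KRT7 was at 2.65 to 5.34 TPM (transcript level per length, as deposited) in the steady-state libraries, while KRT8 was at 1085 to 1239 TPM. Of 15 other markers of ductal and simple epithelium, 9 had a median of at least 1 CPM in the steady-state KO libraries, 8 in the steady-state NC libraries, 9 in the libraries labelled KO and 7 in those labelled NC. Their summed level was 1347 to 1549 CPM and 1277 to 1518 CPM in steady-state KO and NC, 1011 to 1694 CPM under the label KO, and 132 to 173 CPM under the label NC. One gene, SPINT2, which encodes a serine protease inhibitor and was singled out after its values were seen, made up most of the first 3 sums, at 709 to 1505 CPM under the label KO and 0.620 to 2.22 CPM under the label NC. ST14, a membrane serine protease, went the other way, at 0.369 to 1.07 CPM under the label KO and 3.37 to 13.5 CPM under the label NC. EPCAM, an epithelial adhesion protein, was at 0.224 to 1.16 CPM under the label NC and at 4.70 to 9.85 CPM under the label KO. CFTR, a ductal chloride channel, was at 0 in the steady-state libraries. The 6 immune markers, mostly CD68, a lysosomal protein, had a summed level of 113 to 249 CPM under the label KO and 10.4 to 15.2 CPM under the label NC, and of 93.1 to 118 CPM and 64.4 to 67.5 CPM in steady-state KO and NC, while PTPRC, the marker of all leukocytes, had at most 5 counts in any library. The 10 fibroblast markers summed to 38.3 to 70.4 CPM and 32.0 to 41.3 CPM under the labels KO and NC, and to at most 21.3 CPM in the steady state, and the 5 acinar markers to at most 0.410 CPM anywhere. The part of these levels in the keratin results was not tested.

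**Figure D1:**
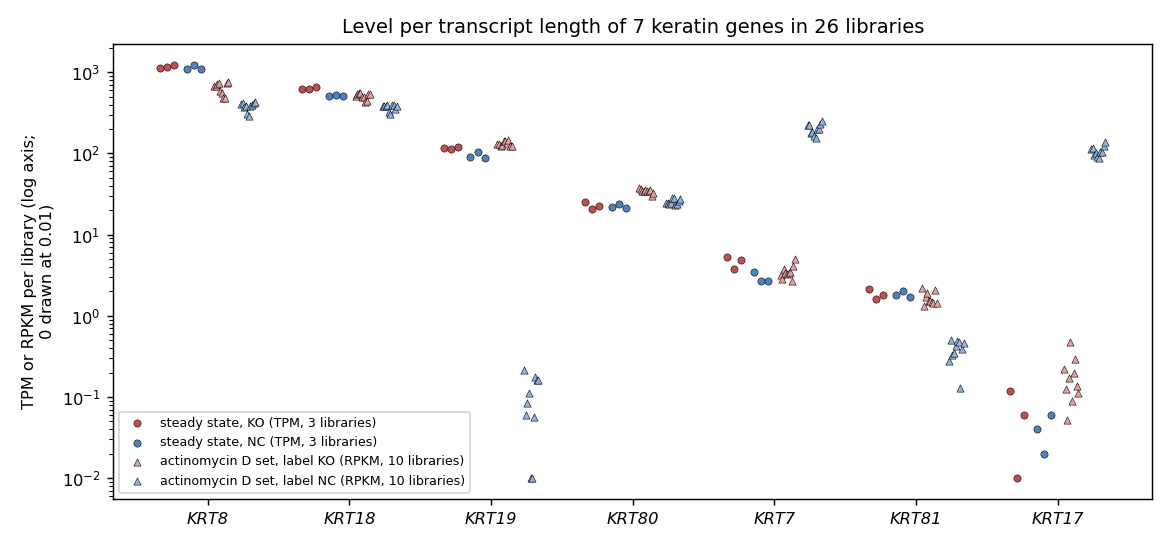
Level per transcript length of each keratin gene (horizontal axis) in each of 26 libraries (points; vertical log axis, TPM for the steady-state set and RPKM for the actinomycin D set, so heights are not on one scale between the sets). KRT19 points of the libraries labelled NC lie near the bottom (0 to 0.214 RPKM), where their KRT7 (155 to 254 RPKM) and KRT17 (87.5 to 137 RPKM) points stand far above those of the other groups.

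In steady-state KO, neighbours in the order did not overlap: KRT8 was at 1131 to 1226 TPM, KRT18 at 613 to 656 TPM, KRT19 at 113 to 121 TPM, KRT80 at 20.9 to 24.9 TPM, KRT7 at 3.72 to 5.34 TPM, KRT81 at 1.63 to 2.14 TPM and KRT17 at 0 to 0.12 TPM. In steady-state NC they did not overlap either. Under the label KO the deposited RPKM (reads per length and library total) of KRT8, 488 to 767, overlapped that of KRT18, 432 to 553, although KRT8 was the higher of the pair within each library. Under the label NC, KRT8 (291 to 435 RPKM) and KRT18 (304 to 399 RPKM) were not separated, with KRT18 first in 6 libraries and KRT8 first in 4. KRT81 (0.128 to 0.505 RPKM) and KRT19 (0 to 0.214 RPKM) overlapped there too. KRT8 and KRT18 together made up 91.8 to 92.8% of the members' counts in the steady-state libraries, 83.3 to 89.1% under the label KO and 67.9 to 72.8% under the label NC.

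The steady-state comparison asks how loss of KHSRP relates to each keratin's level. KRT7 rose and KRT80 fell in KO, both by less than a doubling, and the other 4 tested members did not pass the threshold. These 2 of 6 tested members stood beside 50.6% of all 17240 genes called at an adjusted p under 0.05, 24.4% higher and 26.3% lower, so the share of members called was not above the background. The members' median log2 change was -0.07, against 0.02 over all genes. KRT17 did not pass the filter on low counts and was not tested.

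**Figure D2:**
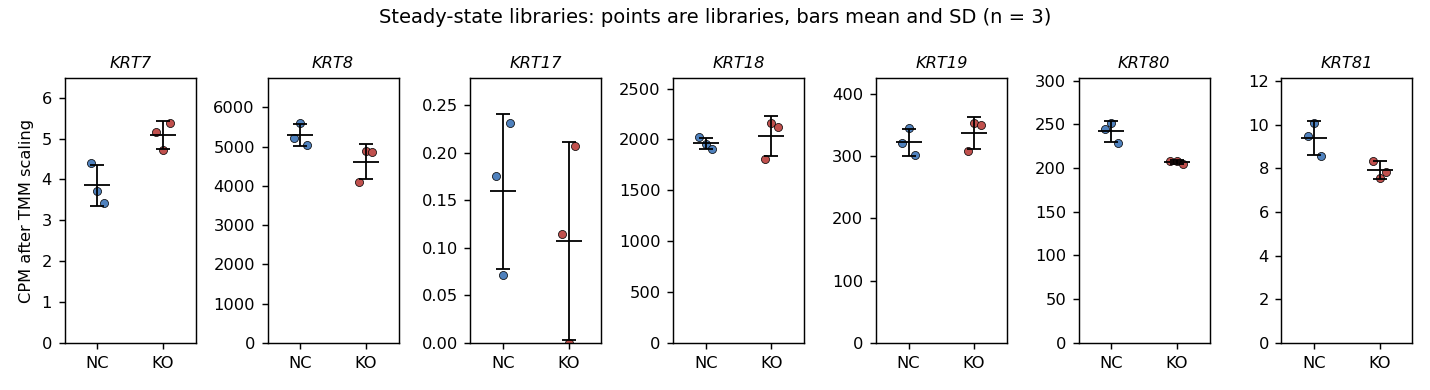
CPM after TMM scaling of each keratin gene in the 3 NC and 3 KO steady-state libraries (points), with the mean and SD as bars and each vertical axis starting at 0. KRT7 points lie higher in KO, KRT8, KRT80 and KRT81 points lie lower on this scale, and those of KRT18, KRT19 and KRT17 overlap; on the TPM scale KRT8, KRT80 and KRT81 no longer lie lower.

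Among the type II chains, KRT8 was at 4104, 4880 and 4856 CPM in KO and at 5229, 5614 and 5051 CPM in NC. All 3 KO libraries were below all NC libraries, yet its log2 change of -0.20 (SE 0.08) had an adjusted p of 0.0565 by edgeR's quasi-likelihood test and was not called. That result lay close to the threshold: RLE scaling (-0.22, adjusted p = 0.0406) and no filter on low counts (adjusted p = 0.0125) called it, and DESeq2 (adjusted p = 0.0554) did not. KRT80 was at 208, 208 and 205 CPM in KO and at 245, 252 and 228 CPM in NC, a log2 change of -0.23 (SE 0.07, adjusted p = 0.0217). KRT7 was at 5.16, 4.71 and 5.39 CPM in KO and at 4.41, 3.72 and 3.43 CPM in NC. Its KO libraries were all above the NC libraries, with a log2 change of 0.41 (SE 0.13, adjusted p = 0.0293), and rested on 133 to 234 counts a library. KRT81 was at 8.35, 7.57 and 7.83 CPM in KO and at 9.48, 10.1 and 8.58 CPM in NC, again without overlap, but its log2 change of -0.25 (SE 0.10) had an adjusted p of 0.0708. The groups did not overlap for these 4 of 6 tested members, as for 60.0% of all genes.

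Among the type I chains, KRT18 was at 1810, 2167 and 2125 CPM in KO and at 2021, 1951 and 1911 CPM in NC. KRT19 was at 308, 354 and 351 CPM in KO and at 321, 345 and 301 CPM in NC. The groups overlapped for both, with log2 changes of 0.05 (SE 0.08, adjusted p = 0.586) for KRT18 and 0.07 (SE 0.08, adjusted p = 0.525) for KRT19. KRT17 had 4, 0 and 9 counts in KO and 6, 3 and 9 in NC. The library with 0 counts allows up to 3. At these counts KRT17 was near 0 in both groups, and no test was made.

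KO replicate 1 had the lowest level of KRT8, KRT18 and KRT19 within its group. Without it the change of KRT18 was 0.15 (adjusted p = 0.0203), past the threshold, and that of KRT8 was -0.10 (adjusted p = 0.0971). The scale decided several results. With the deposited TPM the log2 changes of KRT8, KRT80 and KRT81 were 0.04, 0.02 and 0.00, so the fall seen with counts was absent. KRT18 (0.29, adjusted p = 0.00685 by limma) and KRT19 (0.31, adjusted p = 0.0179 by limma) passed the threshold upward. On the TPM scale the median gene stood at 0.12, and 77.2% of all calls were upward. TPM are relative to all listed transcripts, and 6 small structural RNAs took 67.2 to 71.2% of the TPM in KO and 73.4 to 75.0% in NC; their part in the result was not tested. With the trend over transcript length removed, KRT80 stood at 0.01 (adjusted p = 0.932) and KRT7 at 0.29 (adjusted p = 0.0978), while KRT8 (-0.26, adjusted p = 0.0169) and KRT81 (-0.29, adjusted p = 0.0322) passed.

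The ratio of KRT8 to KRT18 within a library does not depend on the library's scaling. Per transcript length it was 1.86 ± 0.0128 in steady-state KO and 2.21 ± 0.130 in NC (SD, n = 3 each), with all KO libraries (1.85 to 1.87) below all NC libraries (2.12 to 2.36). An exact two-sided permutation test gave p = 0.1, the smallest that 3 against 3 libraries allow (0.15 adjusted over the 3 ratios tested). The summed type II level over the summed type I level was 1.60 ± 0.0113 in KO and 1.92 ± 0.0919 in NC, with the same exact permutation p of 0.1 (n = 3 each). The members' share of all counts was 0.741 ± 0.0652% in KO and 0.761 ± 0.0307% in NC (n = 3 each, exact permutation p = 0.8).

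**Figure D3:**
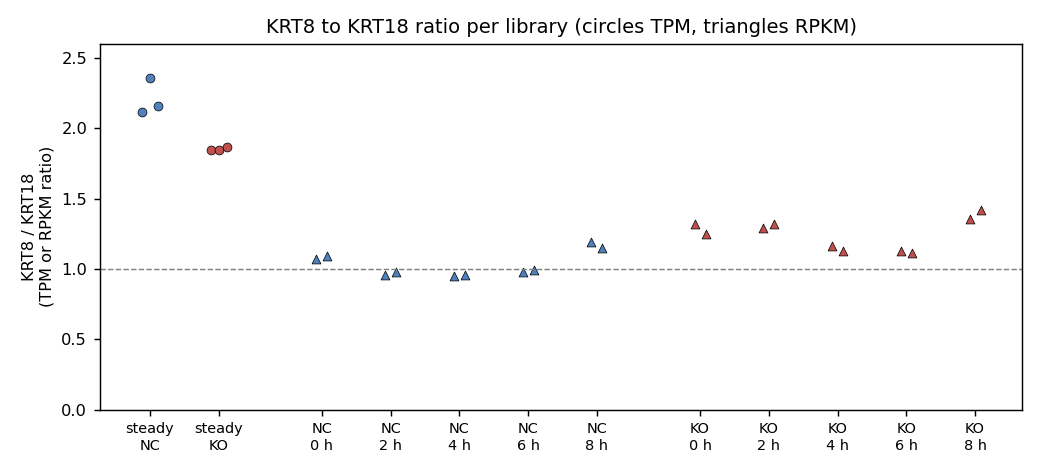
Ratio of KRT8 to KRT18 per transcript length in each library (points; vertical axis from 0; dashed line at 1), by set, label and time. Steady-state libraries lie between 1.85 and 2.36, libraries labelled KO between 1.12 and 1.42, and libraries labelled NC between 0.950 and 1.19, on both sides of 1.

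In the actinomycin D set at 0 h, 3 of the 7 genes were at a high level under one label and far lower under the other. KRT19 was high in the libraries labelled KO and near 0 in those labelled NC. KRT17 was near 0 under the label KO and high under the label NC. KRT7 was low but not near 0 under the label KO and high under the label NC, with a limit from its antisense gene given below. All 7 members passed the threshold, 5 higher and 2 lower under the label KO, beside 67.1% of all 17715 genes (35.5% higher, 31.6% lower). The members' median log2 difference was 0.57, against 0.06 over all genes. Groups of 2 did not overlap for any member, as for 82.0% of all genes. In bulk samples, fewer cells with a gene and less of its RNA per cell cannot be told apart.

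KRT19, the type I chain of ducts, was at 412 and 410 CPM (8629 and 7635 counts) in the libraries labelled KO and at 0.671 and 0.188 CPM (15 and 4 counts) in those labelled NC. Its log2 difference was 9.86 (SE 0.12, adjusted p = 3.72e-41). Leaving out each library in turn gave 9.24 to 11.05, a wider span than this SE conveys at such low counts under the label NC. KRT7, its type II counterpart in ducts, went the other way, at 11.6 and 10.3 CPM under the label KO and 816 and 819 CPM under the label NC (log2 difference -6.22, SE 0.07, adjusted p = 4.24e-39). KRT17, of basal and stressed epithelium, was at 0.763 and 0.430 CPM (16 and 8 counts) against 384 and 396 CPM (8563 and 8431 counts), a log2 difference of -9.32 (SE 0.19, adjusted p = 2.76e-18). For KRT17 leaving out each library gave -9.81 to -8.99, again wider than the SE conveys. The same opposition held at every later time, with 7608 to 10958 counts of KRT19 under the label KO and 0 to 15 under the label NC. KRT7 had 191 to 378 counts under the label KO and 11972 to 20288 under the label NC, and KRT17 had 4 to 34 and 6146 to 10112.

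**Figure D4:**
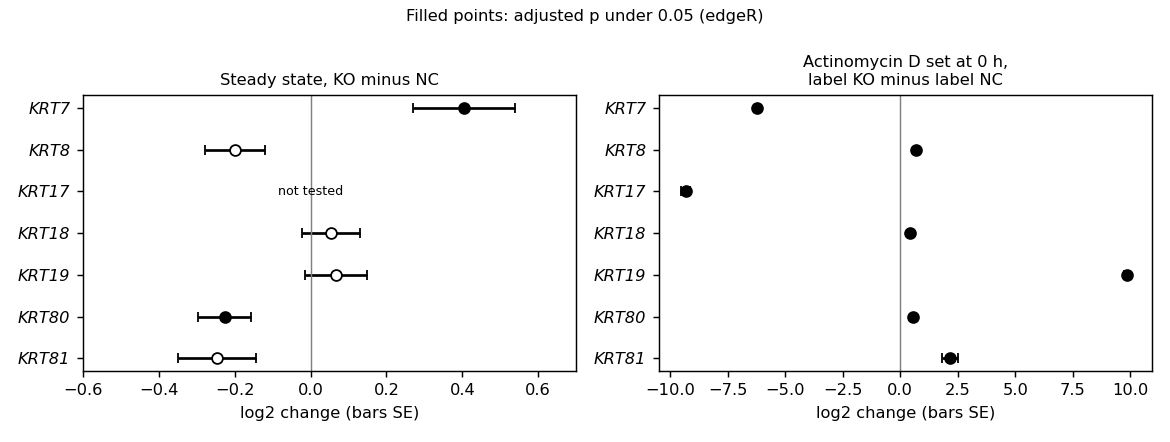
Log2 change of each member, KO minus NC, in the steady-state set (left) and between the labels at 0 h of the actinomycin D set (right), with SE bars and filled points where the adjusted p was under 0.05 on the count scale. The SE bars of KRT17 and KRT19 at 0 h are too narrow for their low counts under a label. The horizontal axes differ: steady-state changes run from -0.25 to 0.41 and those at 0 h from -9.32 to 9.86; with TPM the steady-state points of KRT8, KRT80 and KRT81 move to 0.04, 0.02 and 0.00.

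The simple-epithelial pair and KRT80 differed by less. KRT8 was at 3417 and 3343 CPM under the label KO and at 2089 and 2154 CPM under the label NC (log2 difference 0.67, SE 0.03, adjusted p = 2.89e-22). KRT18 was at 1723 and 1779 CPM against 1302 and 1310 CPM (0.42, SE 0.03, adjusted p = 4.5e-15). KRT80 was at 329 and 313 CPM against 215 and 218 CPM (0.57, SE 0.05, adjusted p = 1.87e-14). KRT81 was low under both labels, at 9.49 and 5.69 CPM against 1.21 and 2.21 CPM (2.16, SE 0.35, adjusted p = 1.02e-06). On the molecule scale that the authors deposited, the median gene was 0.90 higher under the label KO and 10149 genes were called higher against 2284 lower, where the counts gave 6286 and 5599. Every member kept its direction and call on that scale, with KRT18 at 1.48 and KRT8 at 1.75. At 6 h KRT18 no longer differed past the threshold (-0.05, adjusted p = 0.198), and the other 6 members did, beside 72.3% of all genes.

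Over the labelled times, the levels did not fall steadily in either label. Under the label NC, KRT8 was at 2089 and 2154 CPM at 0 h, 1776 and 1860 at 2 h, 1451 and 1405 at 4 h, 1915 and 1993 at 6 h, and 2186 and 2277 at 8 h. It was lowest at 4 h (log2 change from 0 h -0.57, adjusted p = 4.45e-19), and the difference between 8 h and 0 h did not pass the threshold (0.07, adjusted p = 0.24). Under the label KO, KRT8 was at 3417 and 3343 CPM at 0 h, 3739 and 3805 at 2 h, 2718 and 2606 at 4 h, 2155 and 2158 at 6 h, and 3900 and 4099 at 8 h. Here the lowest time was 6 h, with a log2 change from 0 h of -0.65 (adjusted p = 1.02e-20), and 8 h lay above 0 h (0.24, adjusted p = 7.94e-08). KRT18 was lowest at the same times, with 1018 and 976 CPM at 4 h under the label NC and of 1270 and 1289 CPM at 6 h under the label KO.

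**Figure D5:**
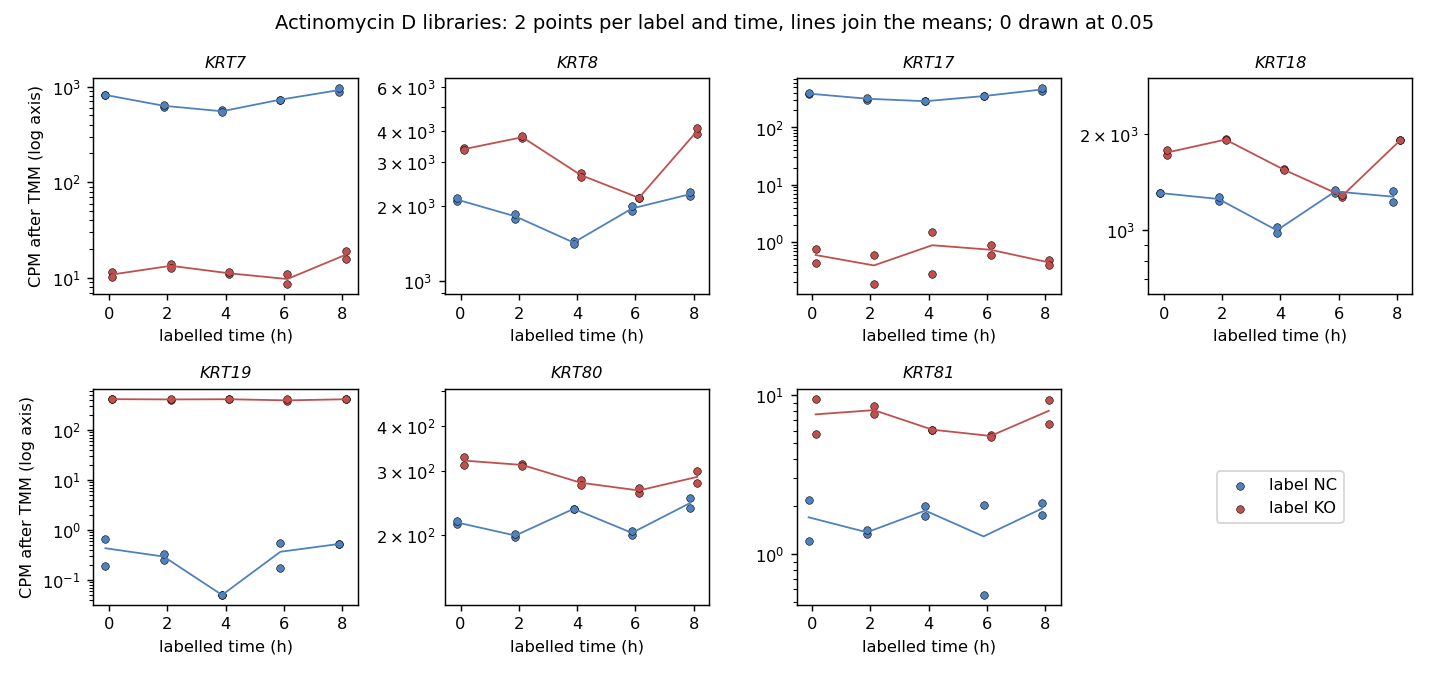
CPM after TMM scaling of each keratin gene (vertical log axes) against the labelled time in hours, with 2 points per label and time and lines through the means. KRT8 and KRT18 have their lowest points at 4 h under the label NC and at 6 h under the label KO; KRT19 under the label KO stays between 372 and 415 CPM.

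KRT7 under the label NC was at 816 and 819 CPM at 0 h, 563 and 541 CPM at 4 h, and 875 and 961 CPM at 8 h. KRT17 had a similar course there, from 384 and 396 CPM at 0 h to 289 and 285 CPM at 4 h and 436 and 483 CPM at 8 h. KRT80 under the same label was highest at 8 h (238 and 252 CPM) and at 4 h (237 and 236 CPM), so it did not share the low point. Under the label KO, KRT80 was highest at 0 h (329 and 313 CPM) and lowest at 6 h (262 and 269 CPM). KRT19 under the label KO lay between 372 and 415 CPM at all 5 times (adjusted p = 0.669), the flattest course under that label of a member with over 100 CPM.

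The F test over the 5 times called 6 of 7 members under the label NC, beside 54.7% of all genes, and 4 of 7 under the label KO, beside 55.9%. Under the label NC the largest log2 difference between times was 0.64 for KRT8 (adjusted p = 2.68e-20), 0.41 for KRT18 (5.02e-14), 0.73 for KRT7 (1.22e-14), 0.68 for KRT17 (3.02e-05) and 0.30 for KRT80 (1.83e-07). The sixth, KRT19, had 0 counts in both 4 h libraries and at most 15 in any, and none of 2, 6 and 8 h passed the threshold against 0 h (adjusted p 0.441 to 0.909). Under the label KO it was 0.89 for KRT8 (3.86e-26), 0.59 for KRT18 (9.95e-20), 0.85 for KRT7 (6.17e-09) and 0.27 for KRT80 (3.25e-06). A test of whether the time course differed between the labels, added after the data had been seen, called 5 of 7 members beside 55.3% of all genes: KRT8 (adjusted p = 4.28e-20), KRT18 (9.15e-17), KRT80 (1.73e-07), KRT7 (2.33e-07) and KRT19 (7.13e-05), the last resting on the libraries with 0 counts.

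The 78 cytosolic ribosomal protein genes moved with KRT8. Their summed level under the label NC was lowest at 4 h (34852 to 34965 CPM, against 53088 to 53257 CPM at 0 h and 57587 to 59360 CPM at 8 h). Under the label KO it was lowest at 6 h (25123 to 25272 CPM, against 39096 to 39450 CPM at 0 h). Scaled to these genes, the KRT8 range over times shrank to 0.15 under the label NC and to 0.05 under the label KO (adjusted p = 0.529). On that scale KRT7 (adjusted p = 0.193) and KRT17 (adjusted p = 0.199) lost their calls under the label NC, while KRT19 gained one under the label KO (range 0.77, adjusted p = 2.24e-16). So KRT8 moved with these transcripts, and KRT19 held its share of the library total while they moved.

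The study examined transcript lifetime through these time points. A straight slope of the log2 level over time passed the threshold for 0 of 7 members and 0 of 17715 genes under either label, and so did its difference between labels, by edgeR. At an unadjusted edgeR p under 0.05 there were 402 genes (2.27%) under the label NC, 633 (3.57%) under the label KO and 529 (2.99%) for the difference. Of the members only KRT80 was among them, for the difference. These slopes are relative to the library total, so a fall shared by most transcripts does not show in them. The courses were also not straight, and departures from a line widen the spread that a slope is tested against. The 0 calls therefore do not show that transcripts were stable. Slopes of the members lay between 0.00 and 0.05 log2 units per hour under the label NC and between -0.03 and 0.05 under the label KO. On the deposited molecule scale, limma called falling slopes for 4 members under the label NC, among 7549 genes called (7536 falling), and for 5 under the label KO, among 8644 genes called (8636 falling). There KRT8 fell by 0.20 per hour (SE 0.03) under the label NC and by 0.23 (SE 0.03) under the label KO, and KRT18 by 0.21 and 0.22 (SE 0.04 each). The slope difference between labels called 0 members and 0 genes on that scale too. The sources used here do not give what set that scale in each library.

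By the Pearson correlation of log2 CPM over the 20 actinomycin D libraries, after each label's own mean was subtracted, KRT8 was most like YWHAQ, LDHB and ATP5F1B (0.99 each) among 9741 genes. KRT18 was most like CCNL2 (0.99), QARS1 and EME2 (0.97 each), KRT7 like PSMB10, EIF2B1 (0.94 each) and NUDT16L1 (0.93), and KRT80 like LANCL2 (0.80), TRA2B (0.79) and FAM13B (0.78). KRT8 and KRT18 correlated at 0.96, KRT8 and KRT7 at 0.84, and KRT8 and KRT80 at 0.39. These are descriptions over libraries that share their labels and times. KRT17 and KRT19 were near 0 under one label, so that their likeness reads counting noise and is not given, and KRT81 was below the level compared.

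By position (hg19, as in the deposited actinomycin D tables) the type II members lie on chromosome 12 with KRT18, and KRT17 and KRT19 lie on chromosome 17. KRT80 spans 52562780 to 52585798 (minus strand), KRT7 52627027 to 52642705 (plus), KRT81 52679697 to 52685318 (minus), KRT8 53290975 to 53343644 (minus) and KRT18 53342639 to 53346690 (plus). On chromosome 17, KRT19 spans 39679869 to 39684560 and KRT17 39775694 to 39780827, both on the minus strand. The sources used here do not say whether counting used strand, so reads of overlapping genes may be mixed. KRT81 lies wholly within KRT86 on the other strand, and KRT86 had 57.0 to 72.1% of the KRT81 counts in the steady-state libraries but 100 to 650% under the label NC, so the KRT81 values are uncertain. KRT8 and KRT18 overlap by 1006 bases. KRT7-AS, antisense within KRT7, had 19.8 to 22.0% of the KRT7 counts under the label NC and 54.0 to 88.0% under the label KO. The low KRT7 values under the label KO are therefore uncertain too. Processed copies named after KRT8 held 0.249 to 1.05% of its counts in any library, and those of KRT18 0.0816 to 0.372%.

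The other keratins of the tables gave 48 names, of which 7 could be tested in the steady state, 2 called higher and 1 lower (median 0.07), beside 50.6% of all genes called. The one called lower was KRT86, at 4.76, 5.13 and 4.52 CPM in KO and 6.07, 7.28 and 5.41 CPM in NC (-0.38, SE 0.14, adjusted p = 0.0387). At 0 h of actinomycin D, 12 were tested, with 3 called higher and 7 lower under the label KO (median -2.44, or -2.16 with the 5 genes at 0 in one label set at the bound that 3 counts give), beside 67.1% of all genes called. Among them KRT10, a type I keratin of differentiated epidermis, was at 20.5 and 24.8 CPM against 106 and 123 CPM (-2.34, SE 0.10, adjusted p = 1.37e-23). KRT15, a basal type I keratin, was at 15.0 and 11.9 CPM against 0.179 and 0.704 CPM (4.93, SE 0.41, adjusted p = 3.14e-13).

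A list of 20 genes named keratin linkers holds desmosome and hemidesmosome genes and others, and not every listed gene is an anchor of keratins. Of these, 19 were tested in the steady state, 6 called higher and 7 lower in KO (median 0.08), beside 50.6% of all genes called. The 4 with the largest changes all fell. DST, a linker of keratins to hemidesmosomes, was at 272, 190 and 200 CPM in KO and 709, 614 and 727 CPM in NC (-1.63, SE 0.13, adjusted p = 3.15e-05). DSP, which anchors keratins at desmosomes, was at 9.81, 6.88 and 6.91 CPM against 21.9, 17.5 and 24.7 CPM (-1.44, SE 0.17, adjusted p = 0.000128). PNN, whose tie to keratins was not examined here, changed by -1.35 (SE 0.14) and DSG2, a desmosomal cadherin, by -1.07 (SE 0.14). At 0 h of actinomycin D, 11 of 20 were called higher and 6 lower under the label KO (median 0.33), beside 67.1% of all genes called. DSP was at 38.9 and 31.1 CPM under the label KO against 574 and 587 CPM (-4.04, SE 0.07, adjusted p = 3.78e-32), beside the low KRT7 and KRT17. ITGA6, the hemidesmosome integrin subunit, was at 941 and 924 CPM against 97.9 and 101 CPM (3.23, SE 0.04, adjusted p = 1.07e-41), PPL changed by 3.70 (SE 0.07) and EPPK1 by -3.43 (SE 0.15). The genes of this and the other lists were tested on the count scale only. They were not tested with the trend over transcript length removed, a setting in which KRT80 lost its steady-state call.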

How the data were processed

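The members and the gene lists were chosen with earlier results of these data known. TRIzol isolation and an mRNA library kit are given per the labels' protocols. The submitters' processing notes name STAR, RSEM, Bowtie2, deepTools and hg19 without roles. For the steady state the authors deposited expected counts and TPM per gene, per the file headers. Of the expected counts, 10.2% were not whole and were rounded, and 45 pseudoautosomal rows were added to their partners. For the actinomycin D set the authors deposited counts, RPKM and a log2 molecule value, per the file headers, the last an exact line of log2 RPKM in each library. The sources used here give no read filters and no annotation.

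Genes were tested with edgeR 4.0.16 (R 4.3.3; filterByExpr, TMM, robust quasi-likelihood F test, Benjamini-Hochberg over all genes, threshold 0.05), fitted on 6 steady-state or on all 20 actinomycin D libraries. Each SE was the size of the log2 change over the root of F, and can be too small where a group is near 0 counts. The code was also run on simulated counts with few changed genes and a common spread. These data differ in both, so that run does not bear on the calls here. Alternatives were RLE factors, no filter, a replicate block, added pseudogene counts, left-out libraries, DESeq2 1.42.0, length offsets, limma 3.58.1 on log2(TPM + 1) or molecule values, and scaling to ribosomal protein genes. For the 0 h comparison, the label difference averaged over the 5 labelled times was counted as a further setting. Replicates differed beyond sampling noise (chi-square per degree of freedom 3.81 to 42.8 in the steady state, 3.9 to 5.3 in the other set), so none was merged. Named from each list were at most 4 called genes with the largest change and at least 5 CPM (other keratins by level), and for likeness the 3 best-correlated genes of at least 10 CPM. Single-library floors of 3 counts cover counting error only.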

Additional observations from a re-analysis of the deposited data

Results flagged for a closer look

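For 4 members the log2 change between KO and NC had opposite signs in the steady-state set and in the actinomycin D set at 0 h. On the log2 scale KRT7 stood at 0.41 and -6.22, KRT8 at -0.20 and 0.67, KRT80 at -0.23 and 0.57, and KRT81 at -0.25 and 2.16. In each case every KO library lay on one side of every NC library in one set and on the other side in the other set. Groups did not overlap for 60.0% of all genes in the steady state and for 82.0% at 0 h. How many of all genes changed sign between the sets was not counted. In the steady state KRT8 (adjusted p = 0.0565) and KRT81 (adjusted p = 0.0708) did not pass the threshold by edgeR. The difference between the sets was not tested, and the steady-state direction of KRT8, KRT80 and KRT81 did not hold with TPM. In CDKN2A only the label NC of the actinomycin D set stood apart from the other libraries, as given above.

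Between the actinomycin D labels, edgeR's interaction test called a different time course for 5 of 7 members, beside 55.3% of all genes. By that test these were KRT7 (adjusted p = 2.33e-07), KRT8 (4.28e-20), KRT18 (9.15e-17), KRT19 (7.13e-05) and KRT80 (1.73e-07). KRT8 and KRT18 were lowest at 4 h under the label NC and at 6 h under the label KO, the same times at which the ribosomal protein genes were lowest. The call of KRT19 rests on 2 libraries with 0 counts. On the deposited molecule scale KRT7 (adjusted p = 0.171) and KRT8 (adjusted p = 0.153) were not called by limma.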

How the results depend on the processing

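The 7 calls at 0 h of actinomycin D kept their direction and call under all 8 other settings and without each library. Steady-state calls were fragile: leaving out each library in turn gave 0 to 3 called members, with 0 without KO replicate 3 and 1 without each NC replicate. KRT7 ranged over 0.33 to 0.51 and lost its call without KO replicate 3 or NC replicates 2 or 3; KRT80 ranged over -0.27 to -0.21 and lost it without KO replicate 3 or NC replicate 1. KRT18 ranged over -0.0036 to 0.15, reversed without KO replicate 2. With length offsets KRT18 (-0.0278), KRT19 (-0.0206) and KRT80 (0.0092) reversed, and with TPM KRT8 (0.0372), KRT80 (0.0198) and KRT81 (0.0013); the cause was not tested. TPM called 6184 genes higher and 1830 lower, where counts called 4198 and 4527, and moved the median gene to 0.12. At 0 h, ribosomal protein scaling called 8760 higher and 3561 lower and moved the median gene to 0.49.

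On the molecule scale slopes were called for 4 members and 7549 genes under the label NC. Under the label KO they were called for 5 members and 8644 genes. The time course difference was called there for 3 members, beside 9864 of 17715 genes. The cause was not tested. Leaving out each library gave 0 to 2 genes with a called slope under the label NC, 0 to 1 under the label KO and 0 to 2 for the difference, and no member.

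Deviations of same-numbered libraries correlated at -0.2 to 0.16 in the steady state and at -0.06 to 0.07 in the other set, so the numbers were not taken as pairs. With the replicate block 8706 steady-state genes were called in place of 8725, and 3 members in place of 2, as KRT8 (-0.20, adjusted p = 0.0464) passed; at 0 h the block called 11827 genes in place of 11885 and the same number of members, 7. Of the values of single members recomputed with a library left out, 333 kept direction and side of the threshold, 5 lost a call, 5 gained one and 1 reversed. Under the other settings, 196 kept both, 7 lost a call, 15 gained one and 6 reversed; the steady-state result of KRT8 kept both in 2 of 7 such settings. Depth limits KRT17 in the steady state and KRT19 under the label NC, where no library had over 15 counts.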

Other observations

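Of 13 other intermediate filament genes, 8 were tested in the steady state, with 5 called higher and 1 lower in KO (median 0.36, against 0.02 over all genes, of which 50.6% were called). LMNA, which encodes the A-type nuclear lamins, was at 909, 966 and 1031 CPM in KO and at 648, 748 and 624 CPM in NC (log2 change 0.52, SE 0.08, adjusted p = 0.000766 by edgeR). LMNB2, a B-type lamin, rose by 0.60 (SE 0.08) and NES, which encodes nestin, by 0.64 (SE 0.12), whereas SYNM, which encodes synemin, fell by 0.75 (SE 0.16). At 0 h of actinomycin D, 11 were tested, with 5 called higher and 2 lower under the label KO (median 0.29, against 0.06 over all genes, of which 67.1% were called). VIM, the vimentin gene of mesenchymal cells and many cultured lines, was at 5410 and 5468 CPM under the label KO and at 1475 and 1460 CPM under the label NC (1.89, SE 0.03, adjusted p = 5.55e-38), so that it was higher in the libraries in which KRT8, KRT18 and KRT19 were higher. LMNA was higher there too (0.36, SE 0.03), while INA, a neuronal filament gene, was at 0.286 and 0 CPM against 52.8 and 52.4 CPM.

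Of 13 transcription factors of epithelium, 7 were tested in the steady state, with 2 called higher and 1 lower in KO (median 0.00), beside 50.6% of all genes called. FOXA2, a factor of foregut endoderm, was at 20.1, 20.8 and 20.6 CPM in KO and at 14.1, 14.3 and 13.2 CPM in NC (0.56, SE 0.08, adjusted p = 0.000457 by edgeR). SOX9, a factor of pancreatic ducts, was at 50.2, 54.8 and 49.2 CPM against 73.1, 72.5 and 77.2 CPM (-0.53, SE 0.08, adjusted p = 0.000501). At 0 h of actinomycin D, 9 were tested, with 3 called higher and 5 lower under the label KO (median -0.72, also with the 5 genes at 0 in one label set at their bound), beside 67.1% of all genes called. SOX9 was at 19.2 and 17.6 CPM under the label KO and at 1.17 and 0.469 CPM under the label NC (4.47, SE 0.25, adjusted p = 5.29e-19). FOXA2 was at 10.6 and 11.4 CPM under the label KO and at 0 counts in both libraries labelled NC. Among those called lower, KLF5, a factor of proliferating epithelium, was at 0.954 and 1.61 CPM under the label KO and at 7.49 and 7.04 CPM under the label NC (-2.51, SE 0.25, adjusted p = 6.49e-12). ELF3, an epithelial ETS factor, was at 0.811 and 0.859 CPM against 3.18 and 3.61 CPM (-2.02, SE 0.28, adjusted p = 2.52e-08).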
